A study of Mus musculus with 20 samples.

Results

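C3aR+ microglia from APP-KI mice were compared with microglia sorted without regard to C3aR from mice of the same App genotype. The comparison took the 3 libraries titled as C3aR+ APP-KI, replicates 1 to 3, and the 3 APP-KI libraries of replicates 4 to 6, which makes 6 of the 20 libraries of the series, and every listed gene entered it. In APP-KI mice the mouse App gene is replaced by a version (NL-G-F) that makes human-type Aβ and holds 3 mutations known from familial Alzheimer disease, and the mice develop plaques. All mice were 9 months old and on the C57BL/6 background, and all microglia were sorted as CD45mid CD11b+ cells after papain digestion. The paper reports male and female mice for the study as a whole, which does not give the sex behind each library. The C3aR+ cells were taken in addition by Td-tomato, a red fluorescent protein placed in the C3ar1 locus. Their mice came from a cross of a homozygous reporter line (C3ar1 fl/fl) with APP-KI, whose heterozygous offspring were bred together. The number of reporter copies in the sorted mice is not given in the sources used here. The all sorted cells came from littermates of a cross of APP-KI with C3aR-KO mice, without a Td-tomato gate, so the sort and the cross changed together. The same contrast in plaque-free mice was taken from 3 C3aR+ and 3 all sorted WT libraries. The labels tie each library to a replicate number and not to an animal, and the p-values measure only the spread between these libraries.

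C3aR is the G protein-coupled receptor for C3a, the fragment released when complement C3 is cleaved, and in the brain it is made mainly by microglia. Microglia at rest are known by purinergic receptors such as P2ry12 and by Tmem119, while those at plaques take on a state, dependent on the lipid receptor Trem2, with more Apoe, lysosomal proteases and lipid-handling genes.

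Sort and library series coincided. All C3aR+ libraries carry library numbers of 1 series. The all sorted APP-KI libraries carry numbers of 2 later series, replicates 4 and 5 of the first and replicate 6 of the second. The sort and the series cannot be told apart by any fit. They coincided in WT too, with all sorted replicate 4 of the first later series and replicates 5 and 6 of the second. The mix of series among all sorted libraries thus differed between the genotypes. The C3aR+ libraries held between 13939559 and 23086997 reads and the all sorted ones between 44418969 and 55722037. The all sorted libraries also stood apart from each other. Replicate 4 had reads on 13249 genes, replicate 6 on 16157 and replicate 5 on 21210 of the 21315 listed, against 14885 to 15379 in the C3aR+ libraries. Replicate 5 had reads on 1450 of 1454 olfactory, vomeronasal and trace amine-associated receptor genes. The other all sorted libraries had reads on 223 and 241 of them and the C3aR+ ones on 128 to 157. Y-linked genes differed too. Eif2s3y had 0 reads in the 3 C3aR+ libraries and in replicate 4, and scaled values of 47.0 and 41.3 in replicates 5 and 6. The 4 Y-linked genes listed summed to 0 in each C3aR+ library and to 0.190, 97.0 and 82.1 in all sorted replicates 4, 5 and 6. Y-linked reads thus differed within the all sorted group and were absent from the C3aR+ group, so sex and sort cannot be fully told apart. Medians of gene lists below are given against all 3 all sorted libraries and against each of replicates 4, 5 and 6. The part of series and sex in them was not tested. Depth was varied only in a refit of 3 against 3 libraries with reads thinned to equal depth, which also changed the scaling.

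**Figure D1:**
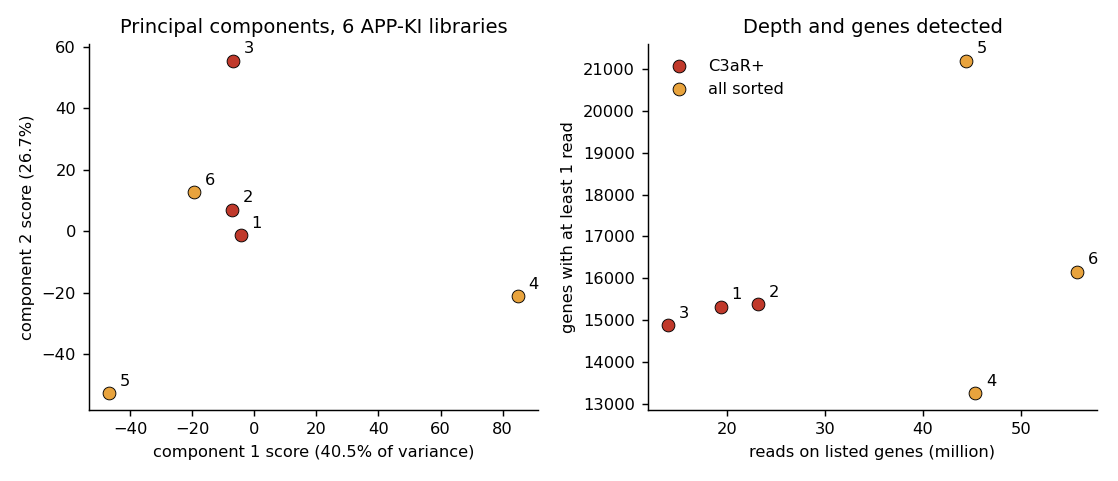
Left, scores of the 6 APP-KI libraries on the first and second principal components of log2(scaled value + 1) over 12903 genes, with 40.5% and 26.7% of the variance. Right, genes with at least 1 read (y) against reads on listed genes (x). Numbers are replicates. C3aR+ replicates 1 and 2 and all sorted replicate 6 sit close together, replicate 4 lies alone at a first score of 84.84, and replicate 5 lies alone at a second score of -52.73 and has the most genes with reads.

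The first component separated replicate 4 from the other 5 libraries, and the second spread replicate 5 and C3aR+ replicate 3 to opposite ends, so neither followed the sort. Across the 12903 genes, all sorted replicate 6 had Pearson correlations of 0.967 to 0.971 with the C3aR+ libraries, above those of the C3aR+ libraries with each other (0.944 to 0.953) and above its own with replicates 4 (0.915) and 5 (0.961). These are descriptions across genes, which are not independent replicates. The C3aR+ libraries were shallower (13939559 to 23086997 reads) than replicate 6 (55722037), and the part of depth in the correlations was not tested.

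The gene used for the sort was looked at first. C3ar1 (ENSMUSG00000040552, GRCm38 chromosome 6, 122847138 to 122856161, minus strand) had scaled values of 383, 251 and 201 in the C3aR+ libraries and 165, 315 and 388 in the all sorted ones. A scaled value is the read count of a gene over the upper-quartile count of its library, times 1 constant, and is not divided by gene length. The ranges overlapped nearly throughout, and the difference of C3aR+ minus all sorted was -0.02 on the log2 scale (SE 0.34, 95% interval -0.78 to 0.74, n = 3 and 3), although the C3aR+ cells had been selected on a reporter in this locus. In WT mice fewer reads were counted on C3ar1 in the sorted cells. The C3aR+ mice carry the reporter in this locus, and how reads of the modified allele were counted is not given in the sources used here, so these values need not be levels of the receptor's RNA. The C3aR+ WT libraries had 71.0, 81.2 and 37.6 and the all sorted WT libraries 276, 330 and 340, with no overlap and a difference of -2.37 (limma adjusted p = 0.033). The 2 contrasts differed by 2.34 (SE 0.47), which did not pass the limma test over all genes (adjusted p = 0.39).

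The sequence upstream of C3ar1 is shown because the reporter is driven from this locus. It is the 250 bases before the RefSeq start (GRCm38.p6, chr6:122856158-122856407, minus strand), with a match to the AP-1 sequence TGACTCA in capitals, which lies 22 bases before the start.

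C3ar1: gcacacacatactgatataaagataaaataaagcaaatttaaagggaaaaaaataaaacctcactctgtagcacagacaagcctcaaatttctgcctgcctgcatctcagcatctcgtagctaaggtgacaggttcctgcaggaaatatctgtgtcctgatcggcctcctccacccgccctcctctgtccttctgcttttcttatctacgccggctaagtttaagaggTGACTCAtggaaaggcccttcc

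TGACTCA, searched on both strands, is in 4.46% of the 32851 windows of this length in the RefSeq table. The hypoxia response core ACGTG, in 16.6% of windows, and the PU.1 core GAGGAA, in 23.3%, had no match on either strand of the C3ar1 window. A match is a description of letters and not of binding.

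The other genes of the gate were at like levels in both sorts. Ptprc, which encodes CD45, had 965, 1056 and 1081 in C3aR+ and 1055, 776 and 730 in all sorted libraries, a log2 difference of 0.29 (SE 0.24, 95% interval -0.24 to 0.82). Itgam, which encodes CD11b, had 328, 518 and 439 against 317, 370 and 495, a difference of 0.12 (SE 0.24, -0.42 to 0.66).

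No gene passed the test between C3aR+ and all sorted APP-KI microglia. Of 12903 genes tested with limma, 0 were higher and 0 lower at an adjusted p under 0.05, and the lowest adjusted p was 0.999. At an unadjusted p under 0.05, 30 genes were higher (0.233% of those tested) and 146 lower (1.13%). edgeR on the recovered reads also called 0, with 39 higher and 152 lower unadjusted. DESeq2 called 0 higher and 7 lower, which were Cd8b1, Fasl, Gimap3, Gzmb, Kdm5d, Notch4 and Pax5. The values of the 3 C3aR+ libraries lay entirely above those of the all sorted libraries for 235 genes (1.82%) and entirely below for 529 (4.1%), 5.92% in all. In WT mice, 24 genes were higher and 72 lower by the same test (0.788% of 12183 called), an unadjusted limma p under 0.05 was found for 16.9% of genes, 7.37% upward and 9.52% downward, and the groups did not overlap in 9.91% upward and 13.1% downward (23% in all).

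**Figure D2:**
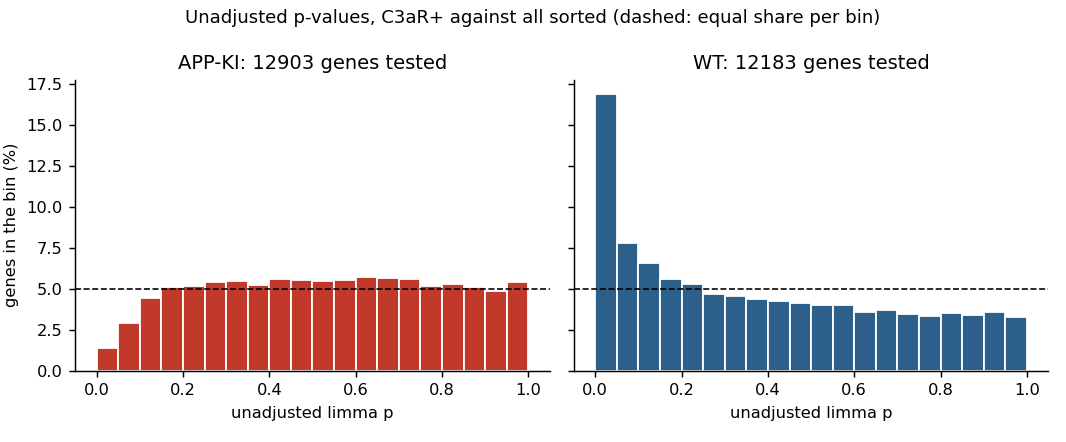
Percent of tested genes (y) in each of 20 equal bins of the unadjusted limma p (x) for C3aR+ against all sorted, in APP-KI (left, 12903 genes) and WT (right, 12183 genes). The dashed line is an equal share per bin. In APP-KI the lowest bin holds 1.36% of genes, below the line, and in WT 16.9%, above it.

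The absence of calls came with wide intervals. The median standard error of a gene was 0.33 on the log2 scale in APP-KI and 0.17 in WT, and the 95% interval of the difference lay within a doubling or halving for 6464 genes (50.1%) in APP-KI and 8959 (73.5%) in WT. For the remaining 49.9% of genes, the interval also held larger differences. The spread was larger among the all sorted APP-KI libraries (median SD over genes 0.41, n = 3) than among the C3aR+ ones (0.31, n = 3), and larger in the former for 63.3% of genes. The all sorted WT libraries had a median SD of 0.11. Leaving out each of the 6 libraries in turn gave 0 higher and 0 to 2 lower genes. The 2 came without replicate 4 and were Eif2s3y and Uty, both Y-linked.

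Genes that define microglia were present in all 6 libraries, at their lowest summed level in all sorted replicate 4. Of 29 microglia markers, all tested, 0 were called, 25 had a positive difference, and the median was 0.09 on the log2 scale, beside -0.04 over all genes. The median was 0.61, 0.12 and -0.17 against replicates 4, 5 and 6, with 20, 18 and 8 of the 29 above 0. Their summed level was 41662, 37370 and 54465 in C3aR+ and 28903, 40290 and 52299 in all sorted libraries. The interval lay within a doubling or halving for 19 of them. P2ry12, a purinergic receptor of resting microglia, had 831, 762 and 964 in C3aR+ and 425, 1015 and 1086 in all sorted libraries, a difference of 0.13 (SE 0.35). Tmem119, a microglial surface protein, had 578, 538 and 533 against 345, 648 and 953, a difference of -0.12 (SE 0.33). For both genes the C3aR+ libraries lay inside the range of the all sorted ones, between replicate 4 and the other two. Cx3cr1, the fractalkine receptor, had 3471, 3015 and 3868 against 1913, 4150 and 4566, a difference of 0.05 (SE 0.45) with the same order of libraries. The 8 homeostatic genes that the study listed on the C3aR+ libraries, and which are thus no independent list, had a median of 0.03 (0.59, -0.25 and -0.21 against replicates 4, 5 and 6) and 0 calls. P2ry12, Tmem119 and Cx3cr1 were lower in each of the 6 APP-KI libraries than in any of the 6 WT ones, where P2ry12 ran from 1609 to 2329.

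**Figure D3:**
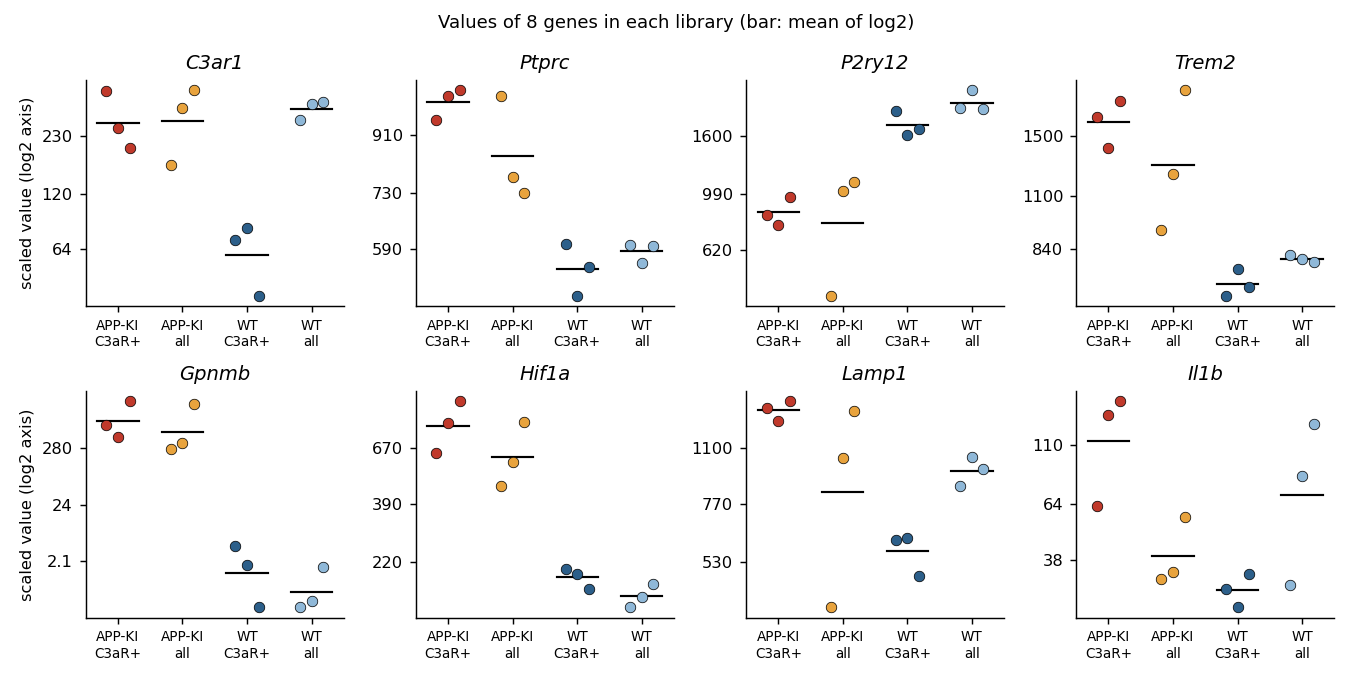
Scaled values (y, log2 axis) of 8 genes in the 3 libraries of each of 4 groups, APP-KI C3aR+, APP-KI all sorted, WT C3aR+ and WT all sorted. Points are libraries and bars are means of log2 values. In APP-KI the 2 sorts overlap in every panel but Il1b, and in WT C3ar1 and Lamp1 are lower in all 3 C3aR+ libraries than in any all sorted one.

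Genes of the plaque response had positive differences without passing the test. Of 39 listed, all were tested, 39 had a difference above 0, 0 were called and the median was 0.53, with the largest at 1.32. In no member did the 2 groups separate. The median depended on the all sorted library. It was 1.29 against replicate 4 and 0.49 against replicate 5, with 36 and 38 members above 0, and -0.16 against replicate 6, with 10 above 0. The 7 listed reactive genes of the study, chosen on the C3aR+ libraries, followed the same order with 0.99, 0.53 and -0.23.

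Trem2, the lipid-sensing receptor needed for the plaque response, had 1651, 1409 and 1790 in C3aR+ and 925, 1232 and 1894 in all sorted libraries, a difference of 0.32 (SE 0.32, 95% interval -0.40 to 1.03). Its adaptor Tyrobp had 1067, 862 and 1337 against 372, 718 and 1303, a difference of 0.61 (SE 0.41). Replicate 4 was lowest and replicate 6 within or above the C3aR+ range for both. Apoe, the lipid carrier protein, had 23450, 18436 and 28892 against 13145, 14237 and 28249, a difference of 0.41 (SE 0.97). Cst7, a cysteine protease inhibitor, had 874, 1120 and 2258 against 300, 864 and 1785, a difference of 0.75 (SE 0.59). Gpnmb, a membrane glycoprotein induced in phagocytes under lysosomal load, varied most within each sort, at 744, 440 and 2065 in C3aR+ and 264, 341 and 1824 in all sorted libraries, a difference of 0.68 (SE 0.73). Gpnmb and Cst7 were higher in every APP-KI library of both sorts than in WT, where Gpnmb ran from 0.285 to 3.95 and Cst7 from 4.90 to 17.0 over the 6 libraries.

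The hypoxia and lipid genes that the study drew from the C3aR+ libraries were not called either. Of 26 hypoxia module genes, 25 had a positive difference and the median was 0.30 (0.31, 0.41 and 0.03 against replicates 4, 5 and 6). Hif1a, the oxygen-regulated subunit of HIF-1, had 639, 862 and 1061 in C3aR+ and 463, 585 and 870 in all sorted libraries, a difference of 0.44 (SE 0.29, -0.22 to 1.09). The highest all sorted value lay above 2 of the 3 C3aR+ values. Slc2a1, the glucose transporter GLUT1 and a HIF-1 target, had 139, 147 and 203 against 97.3, 117 and 143, a difference of 0.45 (SE 0.21). Vegfa, another HIF-1 target that encodes a vascular growth factor, had 34.8, 56.1 and 87.7 against 114, 26.8 and 32. Of 30 glycolysis genes tested, 21 had a positive difference, 0 were called and the median was 0.16 (0.15, 0.32 and -0.01 against replicates 4, 5 and 6). Of 14 lipid module genes, 13 had a positive difference, with a median of 0.41 (0.78, 0.49 and -0.05 against replicates 4, 5 and 6). The C3aR+ values of 2 of them, Sorl1 and Apobec1, lay above all 3 all sorted values, beside 1.82% of all genes. Sorl1, a sorting receptor for APP and lipoproteins, had 233, 225 and 214 against 71.7, 162 and 206, a difference of 0.73 (SE 0.33). Lipa, the lysosomal acid lipase, had 168, 164 and 257 against 77.8, 136 and 192, a difference of 0.60 (SE 0.32). The 19 tested genes of cholesterol efflux and its LXR regulators, written for this comparison, had a median of 0.17 (0.75, 0.15 and -0.11 against replicates 4, 5 and 6).

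The lysosome list behaved like the plaque response. Of 50 members tested, 44 had a positive difference, 0 were called, and the median was 0.45. It was 1.02 against replicate 4, 0.39 against replicate 5 and -0.04 against replicate 6, where 21 members had a positive difference. Lamp1, a major protein of the lysosomal membrane, had 1425, 1307 and 1483 in C3aR+ and 396, 1035 and 1398 in all sorted libraries, a difference of 0.75 (SE 0.42, -0.19 to 1.70). The protease Ctsd had 9960, 9626 and 14065 against 2921, 7340 and 12831, a difference of 0.76 (SE 0.71). In WT mice, 10 of 50 lysosomal genes were called lower in C3aR+ microglia (background 0.591% called lower), among them Lamp1 at -0.74 (adjusted p = 0.042) and Ctsd at -0.69 (adjusted p = 0.046). The contrast of the 2 genotypes was not called for any lysosomal gene after adjustment, and 28 of the 51 tested had an unadjusted p under 0.05 with a larger difference in APP-KI, against 6.64% of all genes.

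**Figure D4:**
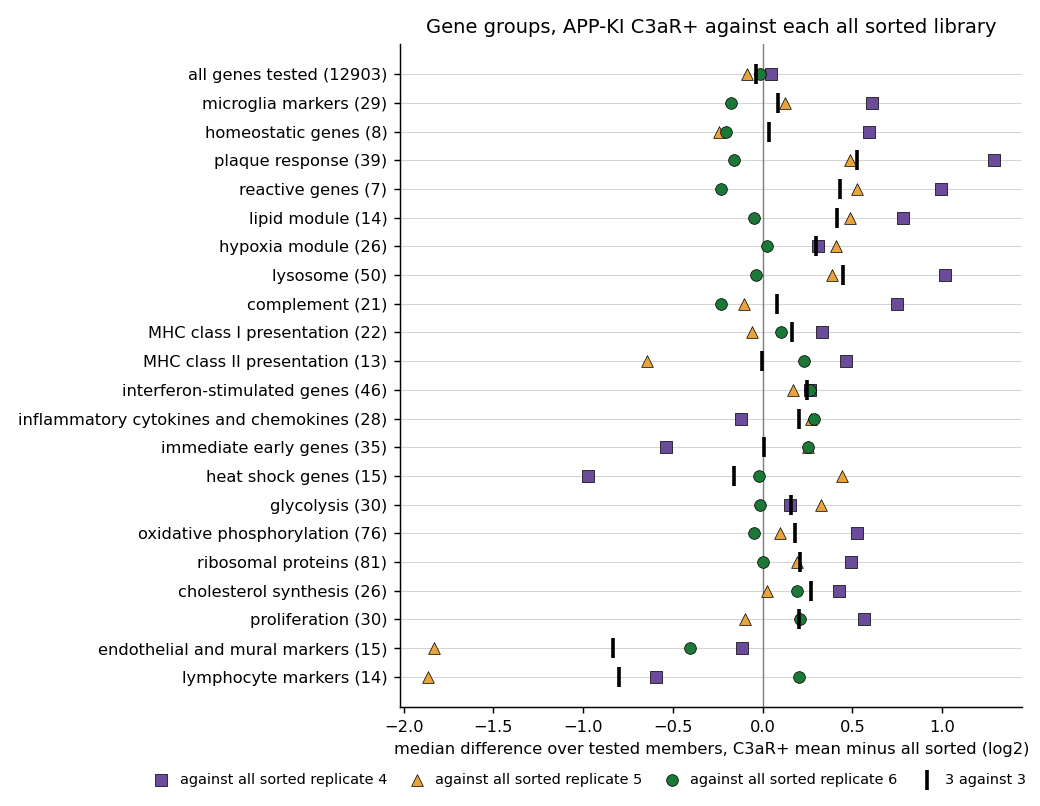
Median difference over the tested members of each gene list (x, log2) of the C3aR+ mean minus all sorted replicate 4 (square), 5 (triangle) or 6 (circle), and of 3 against 3 libraries (bar). The number of members tested is in parentheses. Plaque response and lysosome lie at 1.29 and 1.02 against replicate 4 and at -0.16 and -0.04 against replicate 6, while the median of all genes stays between -0.09 and 0.05.

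The lowest p-values among genes higher in C3aR+ cells belonged to Thbs1 and Il1b, both of which encode secreted proteins. Thbs1 was named after its values were seen. Thbs1 (chromosome 2, 118111876 to 118127133, GRCm38), which encodes the matrix glycoprotein thrombospondin 1, had 141, 138 and 246 in C3aR+ and 56.1, 71.8 and 97.3 in all sorted libraries. The groups did not overlap, and the difference of 1.19 (SE 0.28, 95% interval 0.57 to 1.81) had the lowest unadjusted limma p of all genes, 0.0017. Il1b (chromosome 2, 129364570 to 129371139), the inflammatory cytokine interleukin-1β, had 62.4, 145 and 165 against 31.8, 34 and 56.8, again without overlap, a difference of 1.51 (SE 0.37, 95% interval 0.69 to 2.34). Both had adjusted p-values of 0.999 and so are not called. The C3aR+ mean of Il1b lay above each all sorted library, by 1.81, 1.72 and 1.00 for replicates 4, 5 and 6. Leaving out each library in turn kept the difference of Il1b between 1.25 and 1.94 and that of Thbs1 between 0.92 and 1.39. Both genes stood out by their p-values in these same libraries, so the ranges are no independent support. In WT mice Il1b had 29.1, 24.5 and 33.3 in C3aR+ and 30.1, 82.4 and 134 in all sorted libraries.

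The other inflammatory genes differed less. Of 28 cytokines and chemokines tested, 19 had a positive difference, 0 were called, and the median was 0.20 (-0.12, 0.27 and 0.28 against replicates 4, 5 and 6). The groups separated upward in 4 of them, Il1b, Il1rn, Ccl3 and Ccl4, beside 1.82% of all genes. Ccl3, a chemokine for monocytes and lymphocytes, had 251, 262 and 314 against 200, 227 and 227, a difference of 0.33 (SE 0.17). Il1rn, the antagonist of the interleukin-1 receptor, had 8.12, 11.5 and 12.2 against 6.85, 6.30 and 7.60. Tnf overlapped, at 25.5, 31.8 and 35.5 against 37.9, 20.6 and 23.7.

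Genes of the dissociation response differed among the all sorted libraries more than between the sorts. Of 35 immediate early genes, induced within minutes of a stimulus, 18 had a positive difference and the median was 0.01, which joined -0.54 against replicate 4 with 0.25 against each of replicates 5 and 6. Jun, a subunit of AP-1, had 807, 695 and 691 in C3aR+ and 2320, 772 and 629 in all sorted libraries, so that replicate 4 alone was high. Nr4a1, an inducible nuclear receptor, had 105, 89.2 and 122 against 87.4, 48.2 and 61.5, without overlap, a difference of 0.70 (SE 0.24, 0.17 to 1.24). The groups separated upward in 2 of the 35 immediate early genes, beside 1.82% of all genes. The 15 heat shock genes had a median of -0.16 and were likewise highest in replicate 4, with -0.98 against it, 0.44 against replicate 5 and -0.02 against replicate 6.

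Interferon and antigen presentation genes had no member called. Of 46 interferon-stimulated genes, 38 had a positive difference, with a median of 0.24 that held against each all sorted library (0.26, 0.17 and 0.26). Ifit3, an antiviral effector, had 15.2, 25.3 and 21.3 against 1.88, 19.2 and 12.4, a difference on the log2 scale with SE 0.64 and a 95% interval of -0.24 to 2.65. Gbp3, a guanylate-binding protein, went the other way at 5.22, 10.7 and 3.54 against 17.6, 19.0 and 11.1, without overlap, a difference of -1.26 (SE 0.45). The groups separated upward in 2 of the 46 and downward in 1, beside 1.82% and 4.1% of all genes. MHC class II genes varied within both sorts. H2-Aa had 305, 903 and 775 against 508, 905 and 489, a difference of -0.02 (SE 0.41). Over the 13 genes of class II presentation the median was -0.01, with 0.46, -0.64 and 0.23 against replicates 4, 5 and 6. Cd80, a costimulatory ligand, had 7.96, 5.98 and 3.07 against 10.3, 12.6 and 12.8, without overlap, a difference of -1.02 (SE 0.42). The groups separated downward in 1 of the 13 class II genes, beside 4.1% of all genes. The 22 class I genes had a median of 0.16 (0.33, -0.06 and 0.10 against replicates 4, 5 and 6). The 21 complement genes tested had a median of 0.08 (0.75, -0.11 and -0.23), and neither list had a call. C1qa, a chain of the first complement component, had 3006, 1975 and 5341 against 1482, 2572 and 3678, and C3, the source of C3a, 43.6, 132 and 82.1 against 43.1, 64.3 and 89.8.

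Metabolic and growth genes gave medians whose size, and in part sign, depended on the all sorted library. Of 76 nuclear genes of oxidative phosphorylation, 57 had a positive difference, with a median of 0.18 (0.53, 0.10 and -0.05 against replicates 4, 5 and 6). Of 81 ribosomal protein genes, 64 had a positive difference, with a median of 0.21 (0.49, 0.19 and 0.00). The 31 proteasome genes had a median of 0.10 (0.17, 0.16 and -0.01), and intervals within a doubling or halving in 27. Of 30 proliferation genes, 25 had a positive difference, with a median of 0.20 (0.57, -0.10 and 0.21). Mki67, made in dividing cells, had 60.8, 109 and 62.9 against 39.9, 53.3 and 58.3, without overlap, a difference of 0.58 (SE 0.26). The groups separated upward in 1 of the 30 proliferation genes, beside 1.82% of all genes. None of these lists had a member called.

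Among the genes at lower values in the C3aR+ libraries, several mark other cell types. They were named after their values were seen, apart from the listed markers. Notch4 (chromosome 17, 34564268 to 34588503), a Notch receptor of endothelial cells, had 3.88, 2.30 and 3.54 in C3aR+ and 46.9, 23.7 and 8.29 in all sorted libraries. The groups did not overlap and the difference was -2.41 (SE 0.58, -3.71 to -1.11), which DESeq2 called (adjusted p = 0.0112) and limma did not. Of 15 endothelial and mural markers tested, 2 had a positive difference, the median was -0.84, and the groups separated downward in 3, beside 4.1% of all genes. Against replicates 4, 5 and 6 the median was -0.12, -1.83 and -0.40. Cldn5, a tight junction protein of endothelium, had 0.569, 0.173 and 0.0786 against 10.3, 3.12 and 1.18, a difference of -1.89 (SE 0.75). It passed the filter only through the all sorted libraries, so its separation is no support. The 3 members that separated downward include Cldn5, so they cannot be read as an excess over 4.1%. The summed level of the 16 listed markers ran from 240 to 376 in C3aR+ and from 252 to 361 in all sorted libraries. Flt1, a VEGF receptor on this list, alone had 155 to 314 in C3aR+ and 167 to 243 in all sorted libraries, and at most 22.2 in WT.

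Some lymphocyte genes without a read in the C3aR+ libraries had reads in all sorted ones. Of 17 lymphocyte markers listed, 14 were tested, the median was -0.80, and the groups separated downward in 5, beside 4.1% of all genes. Against replicates 4, 5 and 6 the median was -0.60, -1.86 and 0.20, so the sign turned against replicate 6. Genes without a read in C3aR+ libraries passed the filter (a mean of at least 1) only through the all sorted ones. The direction of such genes was fixed in advance, so the 5 cannot be read as an excess over 4.1%. The summed level of the 17 listed markers was 31.2, 16.2 and 13.2 in C3aR+ libraries. It was 26.9, 154 and 12.8 in all sorted replicates 4, 5 and 6, so that replicate 5 alone stood above the C3aR+ range. The defining T cell gene Cd3e had 0 reads in each C3aR+ library, which allows a scaled value of up to 0.155, 0.130 and 0.236 by counting error, and 2.00, 4.65 and 0.129 in all sorted ones. Gzmb, the granzyme of cytotoxic cells, had 0 reads in each C3aR+ library and 7.84, 17.4 and 0.129. For both genes the value in replicate 6 lay below those bounds, so depth does not resolve it from the C3aR+ libraries. Gimap3, a GTPase of T cells that is not on the list, had 0 reads and then 36.2, 56.6 and 0.351, and Pax5, a B cell transcription factor also not on it, 0 and then 10.9, 13.6 and 0.0555. These genes were thus near 0 in replicate 6 as well, and 6 of the 7 genes that DESeq2 called were either of this kind or Y-linked.

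The summed levels of the remaining cell types overlapped between the sorts, while the medians over their markers depended on the all sorted library. Summed values of 14 astrocyte markers ran from 224 to 322 in C3aR+ and from 224 to 473 in all sorted libraries, those of 15 oligodendrocyte markers from 304 to 498 and from 345 to 377, those of 17 neuron markers from 304 to 621 and from 179 to 454, and those of 15 border macrophage markers from 823 to 1318 and from 907 to 1131. For 20 monocyte and neutrophil markers the range was 216 to 389 in C3aR+ and 53.0 to 454 in all sorted libraries, with replicate 4 the lowest. For 7 erythrocyte genes it was 3.83 to 23.1 and 11.5 to 13.5. Mrc1, a scavenger receptor of border macrophages, had 212, 97.8 and 88.4 against 88.3, 127 and 138. Against replicates 4, 5 and 6 the median difference was 0.55, -1.83 and 0.24 for the 13 astrocyte markers tested. It was 0.37, -1.42 and 0.00 for 6 neuron markers, and 0.49, -0.92 and -0.04 for 12 oligodendrocyte markers. By these medians replicate 5 was the highest all sorted library in all 3 lists. By summed level replicate 6 was above replicate 5 for neuron markers (454 against 374). The median difference was 1.48, -0.47 and -0.78 for 18 monocyte and neutrophil markers. It was 0.07, -0.44 and -0.18 for 15 border macrophage markers and -0.09, 0.52 and -0.30 for 4 erythrocyte genes. None of these lists had a member called. Fewer cells of a type and less RNA per cell cannot be told apart in these bulk libraries.

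The contrast of the sorts in WT mice went another way. The 96 genes called in WT, 24 higher and 72 lower in C3aR+ libraries, were all tested in the APP-KI libraries, which share no library with the WT ones. The 72 lower genes had a median difference of -0.75 in WT and 0.63 in APP-KI, with 1 of 72 below 0 in APP-KI. The 24 higher genes had medians of 0.72 and -0.47, with 0 of 24 above 0. Against replicate 4 the median of the 72 was 1.48, against replicate 5 0.38 and against replicate 6 0.03, where 28 of the 72 were below 0. For the 24 it was -1.18, -0.08 and 0.02. Against replicate 6, 17 of the 24 were above 0. The opposite direction was therefore largest against replicate 4. Against replicate 6 the medians of both sets were near 0, while single genes spread to both sides.

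**Figure D5:**
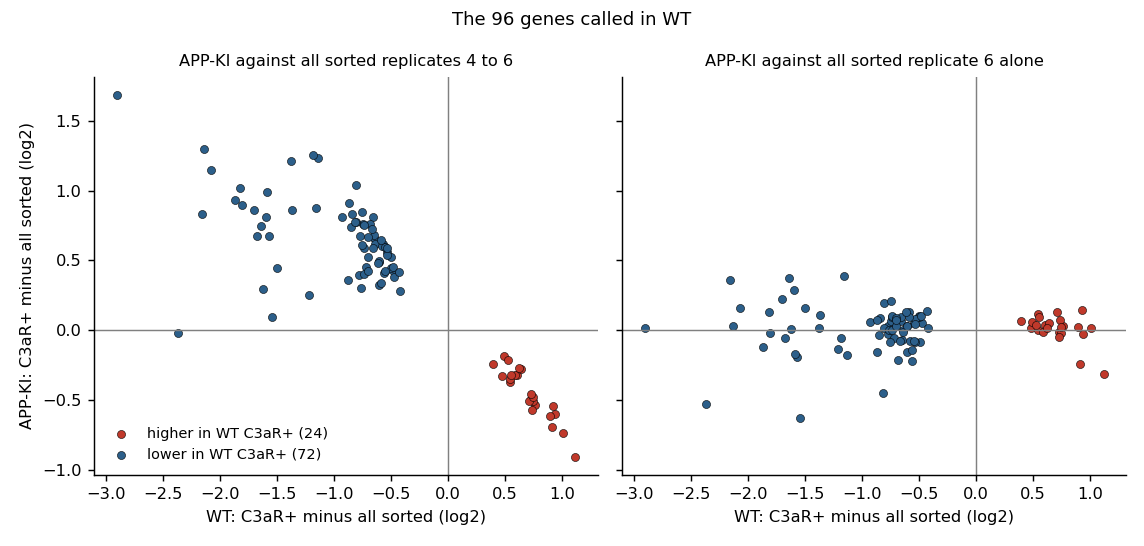
Difference of C3aR+ minus all sorted (log2) in APP-KI (y) against the same in WT (x) for the 96 genes called in WT, with the APP-KI difference taken against all sorted replicates 4 to 6 (left) or replicate 6 alone (right). Each point is a gene. Left, 71 of the 72 genes lower in WT lie above 0 in APP-KI and all 24 higher ones lie below 0. Right, both sets spread around 0.

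Krtcap2 (chromosome 3, 89245966 to 89249906), a subunit of the oligosaccharyltransferase, had the largest fall among the 72 called lower in WT, from 18, 24.6 and 22.2 in all sorted to 4.28, 0.635 and 2.14 in C3aR+ libraries, a difference of -2.90 (adjusted p = 0.034). In APP-KI it had 38.3, 31.5 and 18.6 in C3aR+ libraries and 0, 25.1 and 28.0 in all sorted ones, with no read in replicate 4. Tfdp1, the dimer partner of E2F factors, fell by 2.15 in WT (adjusted p = 0.033), and in APP-KI had 26.0, 39.5 and 24.8 against 8.18, 22.1 and 22.7. Ndufb6, a subunit of respiratory complex I, fell by 2.07 in WT (adjusted p = 0.034), and in APP-KI had 8.12, 8.59 and 7.78 against 0, 7.54 and 7.21. In each of these 3 genes every APP-KI library other than all sorted replicate 4 lay above all 3 C3aR+ WT libraries. Ets1, a transcription factor of lymphoid and endothelial cells, had the largest rise among the 24 genes called higher in WT, 1.12 (adjusted p = 0.042), and in APP-KI had 19.6, 15.0 and 25.8 against 29.8, 72.4 and 24.8.

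The difference between the genotypes was tested directly in the 12 libraries. The all sorted libraries of the genotypes held unequal mixes of library series. Y-linked reads differed within WT too. The 4 Y-linked genes listed summed to 0.0321, 10.6 and 0.0356 in the C3aR+ WT libraries. In all sorted WT replicates 4, 5 and 6 they summed to 83.6, 0.0396 and 0.0863. The part of series and sex in this contrast was not tested. Of 12589 genes, limma called 0 in either direction, with 836 (6.64%) more positive and 644 (5.12%) more negative in APP-KI at an unadjusted p under 0.05. edgeR called 0 and DESeq2 87 and 33. The lowest adjusted p was 0.39. The sort contrast of APP-KI microglia was thus not shown to differ from that of WT microglia in any gene after adjustment by limma, while the count of genes called was 0 in one and 96 in the other. The count in WT depended on single libraries, and was 0 without C3aR+ replicate 1, without all sorted replicate 5 or without all sorted replicate 6.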

How the data were processed

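RNA of sorted microglia was sequenced in 20 libraries, with 3 per group in the 4 groups used here. The libraries were made with a SMARTer total RNA kit, per the labels. Per the paper's methods, the authors sequenced them on a NovaSeq and aligned the reads to mm10 with TopHat. The submitters' processing notes also name cutadapt, featureCounts and DESeq2. The deposited values are named FPKM but are a signal, the reads per gene over the 75th percentile of the library, with no division by length. Whole reads were recovered for 100% of values in every library (within 0.02), and depth is their sum, with 13939559 to 76608464 reads in the 12 libraries. Intervals from a count of 0 cover counting error only.

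Values were multiplied by 35.2 throughout. Of 21315 symbols (10 with more than 1 entry, summed), 347 were not in GENCODE M21, whose GRCm38 coordinates match mm10. The main test was limma (version 3.58.1, R version 4.3.3) with its trend option, after adding 1 to scaled values and taking log2. Genes averaging under 1 were left out, and calls were made at 0.05 after Benjamini-Hochberg correction across every gene tested. Intervals are 95% limma intervals. Fold changes on this scale understate those of low genes. edgeR 4.0.16 and DESeq2 1.42.0 on recovered reads were alternatives. Scripts were tested on simulated counts. Python 3.11.15 was used for tables and figures.

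The libraries and the 35 gene lists were chosen with earlier results of these data known. No gene passed the rule for naming (adjusted p under 0.05, no overlap, mean of at least 10) in APP-KI. Genes named are the gate genes, the leading members of each list and, chosen after their values were seen, genes that separate the groups, that DESeq2 called or that illustrate a group. Mitochondrially encoded and replication-dependent histone genes were not listed, and the 1 nuclear long non-coding RNA listed (Snhg11) had a difference of -0.44.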

Additional observations from a re-analysis of the deposited data

How the results depend on the processing

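The comparison of C3aR+ with all sorted APP-KI microglia gave 0 higher genes in limma and every alternative, and 0 lower genes except for 7 with DESeq2 (160 adjusted p-values of NA left out) and 2 without all sorted replicate 4, a range of 0 to 2 over the libraries left out. Of 590 medians of gene lists recomputed, 564 moved by less than the spread between replicates. That spread includes all sorted replicate 4, so it is a loose measure. Over the libraries left out, the median ran from 0.16 to 0.79 for plaque response and from 0.18 to 0.70 for lysosome. Fitting replicate 6 as the only all sorted APP-KI library, an alternative chosen after seeing the data in which the lone sample is assumed to vary like the others, gave 0 calls and turned the direction of Itgam (-0.23), P2ry12 (-0.36), Cx3cr1 (-0.41), Apoe (-0.28), Trem2 (-0.23), Tyrobp (-0.28), Gpnmb (-1.05), Cst7 (-0.45), Hif1a (-0.0566), Ctsd (-0.22) and H2-Aa (0.29), none of them called. Near 0, the direction also turned for C3ar1 with median ratio scaling (0.0078), for Cx3cr1 with quantile normalization (-0.28), DESeq2 (-0.0103), reads thinned to equal depth (-0.0372) and a library series term (-0.063), and for H2-Aa with median ratio scaling (0.0039), edgeR (0.10), DESeq2 (0.0896) and the series term (0.054). Over the libraries left out, C3ar1 ran from -0.38 to 0.23, Itgam from -0.029 to 0.30, P2ry12 from -0.31 to 0.37, Tmem119 from -0.52 to 0.21, Cx3cr1 from -0.34 to 0.29 and H2-Aa from -0.32 to 0.46.

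In WT, with 24 higher and 72 lower, there were 0 and 0 with no filter or a library series term, 0 and 2 without a trend, 15 and 36 with edgeR, 451 and 473 with DESeq2, 53 higher with thinned reads, 0 and 1 with all 20 libraries in 1 fit, 0 and 0 at an adjusted p under 0.0005, and 2 and 23 with a change of at least 1 on the log2 scale. Leaving out a library gave 0 to 29 higher and 0 to 69 lower. The cause of these changes was not tested. Thinned reads were scaled to the library total and not to the upper quartile, so that setting changed depth and scaling together. The library series term, here and for APP-KI, models only the difference between the 2 later series and sets the C3aR+ series midway. It cannot adjust for the series that coincides with the sort.

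For APP-KI minus WT there were 0 and 0 except 87 and 33 with DESeq2, and 0 to 2 lower over the libraries left out. With the replicate block, the replicate number as a term, 0 and 0 genes were called (906 and 757 unadjusted). The labels do not say that a number marks a shared animal or day, and the deviations of same-numbered libraries correlated between -0.01 and 0.25. No paired analysis was possible because, within APP-KI or WT, the sorts share no replicate number. Depth limits genes at low levels in the C3aR+ libraries, where 1 read is worth 0.0434 to 0.0786.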

Other observations

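Several cholesterol synthesis genes separated C3aR+ from all sorted APP-KI microglia. The C3aR+ values lay above all 3 all sorted values in 6 of the 26 genes tested, beside 1.82% of all genes, and 0 were called. The median difference was 0.27 on the log2 scale, with 0.42, 0.03 and 0.19 against replicates 4, 5 and 6. Cyp51, the sterol demethylase, had scaled values of 28.6, 42.1 and 39.1 in C3aR+ and 26.8, 26.0 and 26.8 in all sorted libraries. Insig1, a sterol sensor that restrains the pathway, had 46.3, 48.0 and 44.8 against 43.0, 33.7 and 31.5. The list was written with earlier results known and supports nothing on its own.

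Some mitochondrial ribosomal protein genes separated the other way. The C3aR+ values lay below all 3 all sorted values in 9 of 76 genes tested, beside 4.1% of all genes, and 0 were called. Of the 76, 33 had a positive difference, and the median was -0.04, with 0.12, -0.23 and -0.22 against replicates 4, 5 and 6. Mrps6 had 2.22, 5.33 and 0.943 in C3aR+ and 8.09, 8.32 and 7.21 in all sorted libraries, a difference of -1.38 (SE 0.54). The C3aR+ libraries were also the shallower ones (13939559 to 23086997 reads), and the part of depth in these separations was not tested.

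The difference between the sorts varied with transcript length in opposite ways against the all sorted libraries. From the shortest to the longest of 4 classes of genes by exon length, the median difference of C3aR+ minus all sorted went from 0.26 to -0.13 against replicate 4, from -0.14 to -0.04 against replicate 5 and from -0.11 to 0.05 against replicate 6. Lengths were known for 98.6% of the genes tested.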
